A study of Mus musculus with 19 samples.

Results

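The nuclear genes of the mitochondrial respiratory chain were taken from the expression table of mouse spleen cells by symbol: every gene whose symbol starts with Nduf, Uqcr, Atp5, Cox4, Cox5, Cox6, Cox7 or Cox8. This gave 91 of the 27179 genes in the table. They comprise 36 genes of complex I, 8 complex I assembly factors (Ndufaf1 to Ndufaf8), 8 genes of complex III, 20 of complex IV, 17 of complex V and 2 pseudogenes. The 17 are the protein-coding genes with an Atp5 symbol. They include Atp5sl and Atp5s, which RefSeq names Dmac2 and Dmac2l, so complex V is here a group by symbol. Of the 91, 89 are annotated as protein coding in RefSeq. Complex II and cytochrome c fall outside these prefixes and are described apart.

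The respiratory chain lies in the inner mitochondrial membrane. Complex I takes electrons from NADH, complex III passes them on to cytochrome c, complex IV hands them to oxygen, and complex V (ATP synthase) uses the proton gradient that the others build to make ATP. Part of the core of complexes I and III, the core of complex IV and part of complex V are encoded in mitochondrial DNA, whereas the genes described here are nuclear, and their proteins are imported and built in with the help of assembly factors. In the spleen, resting lymphocytes respire at a low rate, activated B and T cells enlarge their mitochondria, and maturing red cells discard theirs.

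The mice come from the FCG model of crossed sex chromosomes and gonads, whose Y chromosome has lost Sry while autosome 3 can carry a Sry transgene, which uncouples the type of gonad from the sex chromosomes. XXF and XYF mice have ovaries and lack the transgene, XXM and XYM mice have testes and carry it, and the Y chromosome of XYF and XYM lacks Sry. All descend from B6.Cg-Tg(Sry)2Ei Srydl1Rlb/ArnoJ (XY- Sry) males bred with C57BL/6J females, so the transgene and the sex of the gonads cannot be told apart. Every mouse was immunized intraperitoneally with HKSP, which is heat-killed Streptococcus pneumoniae of the avirulent, nonencapsulated strain R36A, and the spleen was taken a week later. A lysis step to remove red cells, with ammonium chloride, came before RNA isolation, and polyA RNA of the splenocytes was sequenced, 1 library a mouse. There were 5 XXF, 4 XYF, 5 XXM and 5 XYM mice, and the sources used give no ages for them and no unimmunized samples. Library sizes ranged from 11263753 reads in XYF F6 to 19962022 in XYM 13, and XXM 2 had 12119957. In the sample labels, libraries of mice with testes and of mice with ovaries are numbered in separate blocks. The XXM labels also carry an extra tag. What the numbering and the tag mean is not given. Any grouping that follows the blocks cannot be told apart from the sex of the gonads.

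Levels are given as RPKM, reads scaled to the length of the gene and to the size of the library. Values follow the mouse numbers within a group: F1 to F5 for XXF, F6 to F9 for XYF, 2, 5, 6, 7 and 8 for XXM, and 9, 12, 13, 15 and 16 for XYM. Differences are between group means of log2(RPKM + 1). They were tested with limma across all 14186 genes that reached an RPKM of 0.5 in at least 4 mice, with Benjamini-Hochberg adjustment over those genes. A gene is called past the threshold at an adjusted p under 0.1, and past the fold as well when its difference also exceeds about 1.5-fold. These p-values measure spread between these mice. In such bulk samples, fewer cells of a type and less RNA per cell cannot be told apart.

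The label splenocytes was checked against marker genes. The most abundant marker of each list was found in every mouse, with mean RPKM of 865 for Cd79b (B cells), 168 for Cd3g (T cells), 201 for Gzma (NK cells), 4978 for S100a9 (myeloid cells), 957 for Jchain (plasma cells) and 10148 for Hbb-bs (erythroid cells). The S100a9 mean was carried by XYF F9 (23224) and XYM 9 (24728), while the other mice ranged from 1296 to 7161. No marker of these lists was at 0 in every mouse. Erythroid transcripts were abundant after lysis, and their levels in each mouse are given with the other cell markers.

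Of the 91 genes, 86 passed the filter on low values and were tested. Complex I was tested in full, from Ndufa3, an accessory subunit with a mean RPKM of 232, to Ndufb4, another, at 5.36. Among the assembly factors the highest was Ndufaf8 at 26.7 and the lowest Ndufaf5 at 4.36. Complex III reached 368 for Uqcrh, the hinge protein beside cytochrome c1. Complex IV reached 462 for Cox4i1, and complex V ran from 387 for Atp5b, the catalytic beta subunit, to 3.75 for Atp5g2. The 5 genes not tested were Cox7b2 and Cox8b, without a read in any library, Cox8c, with 1 read in 1 mouse, Uqcr11, with at most 1 read in each of 4 mice, and Ndufa4l2, with 0 to 9 reads a mouse. Their reads were absent or too few to compare.

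Upstream sequence was read for the genes because so many of them moved together between XYM and XYF, and 74 of the 89 protein-coding genes had an entry among the RefSeq GRCm38.p6 promoters. In the 250 bases upstream of the start, 3 motifs known from nuclear respiratory genes were searched on both strands: the NRF1 core GCATGCGC, the ETS core CCGGAAG bound by the GABP proteins, and the YY1 core AAGATGGCG. NRF1 was matched in 8 of the 74 genes (10.8%), against 2.56% of all 27025 genes with a promoter and 4.84% of the 10156 other genes tested. ETS was matched in 13 genes (17.6%, against 7.83% and 15.5%), and YY1 in 2 genes (2.7%, against 0.71% and 1.41%). Any of the 3 was present in 20 genes (27%), beside 10.5% and 20.5%. The ETS and combined shares were thus close to those of the other genes tested. A match describes letters only, and what binds there was not tested. The 4 promoters printed here belong to genes that fell in XYM and show the motifs alone and together. They were chosen after the values were seen, and each runs 5' to 3' on the strand of its gene. Capitals mark the motif matches. The NRF1 core overlaps its own reverse complement, so that a match on both strands is 1 longer run of capitals. Atp5k, a subunit at the dimer interface of ATP synthase, has an NRF1 match in chr5:108434400-108434649 on the minus strand. Cox6a1, a subunit of cytochrome c oxidase, has an NRF1 and an ETS match in chr5:115348959-115349208, minus strand. Cox6b1, which sits where cytochrome c docks, has an ETS match in chr7:30626115-30626364, minus strand. Ndufb7, an accessory subunit of complex I, has an ETS match in chr8:83566508-83566757, plus strand.
Atp5k: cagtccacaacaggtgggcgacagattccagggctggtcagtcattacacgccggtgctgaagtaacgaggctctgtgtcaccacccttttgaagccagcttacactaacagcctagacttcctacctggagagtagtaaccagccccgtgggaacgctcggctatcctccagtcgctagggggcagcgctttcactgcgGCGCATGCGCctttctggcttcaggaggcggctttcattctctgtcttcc
Cox6a1: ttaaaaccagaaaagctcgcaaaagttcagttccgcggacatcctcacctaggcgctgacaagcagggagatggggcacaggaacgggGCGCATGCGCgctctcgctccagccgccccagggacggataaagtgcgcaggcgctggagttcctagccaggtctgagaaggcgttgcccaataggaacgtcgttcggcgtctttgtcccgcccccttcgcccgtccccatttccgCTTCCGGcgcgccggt
Cox6b1: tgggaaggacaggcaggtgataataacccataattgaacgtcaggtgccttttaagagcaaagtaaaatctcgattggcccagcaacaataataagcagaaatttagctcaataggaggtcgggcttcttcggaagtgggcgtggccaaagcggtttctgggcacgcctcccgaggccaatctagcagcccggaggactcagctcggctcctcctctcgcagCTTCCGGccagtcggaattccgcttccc
Ndufb7: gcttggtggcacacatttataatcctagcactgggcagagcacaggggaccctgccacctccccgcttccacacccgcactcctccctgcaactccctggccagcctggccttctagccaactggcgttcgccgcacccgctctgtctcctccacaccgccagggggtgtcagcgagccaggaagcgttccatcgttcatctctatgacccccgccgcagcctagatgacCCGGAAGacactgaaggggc

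Each gene's deviation from its mean over the 19 mice was taken, and the median over the 86 genes gives 1 value a mouse on the log2 scale. These medians were -0.02, 0.47, 0.35, 0.02 and 0.11 in XXF, 0.39, 0.39, 0.14 and -0.13 in XYF, 0.44, 0.20, -0.14, -0.08 and -0.28 in XXM, and -0.25, -0.56, -0.38, 0.07 and -0.60 in XYM. The highest were XXF F2, XXM 2, XYF F7 and XYF F6, and the lowest XYM 16 and XYM 12. XYM 15 was the highest of the XYM mice, at 0.07, and XYF F9 was the lowest mouse with ovaries. Mean and SD over mice came to 0.19 ± 0.21 for XXF (n = 5), 0.20 ± 0.25 for XYF (n = 4), 0.03 ± 0.29 for XXM (n = 5), and -0.34 ± 0.27 for XYM (n = 5). All groups overlapped, since XYM 15 lay above XYF F9. Across the 19 mice this median fell with library size (Pearson r -0.58, and -0.46 within groups). The XYM group had the largest median library, at 19061692 reads. Why the median went with library size was not tested. The summed RPKM of the 91 genes was 7397, 10895, 10069, 7764 and 8286 in XXF, 10400, 10258, 8312 and 6655 in XYF, 10583, 8550.2, 6491, 6864 and 5909 in XXM, and 6217, 5009.5, 5662, 8029 and 4489.8 in XYM.

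Within complex I the per-mouse medians were -0.01, 0.49, 0.41, 0.02 and 0.11 in XXF, 0.40, 0.43, 0.10 and -0.15 in XYF, 0.44, 0.21, -0.10, -0.09 and -0.28 in XXM, and -0.24, -0.60, -0.41, 0.07 and -0.71 in XYM. In complex IV they were -0.05, 0.53, 0.32, 0.02 and 0.12 in XXF, 0.47, 0.42, 0.15 and -0.13 in XYF, 0.46, 0.15, -0.19, -0.11 and -0.33 in XXM, and -0.28, -0.58, -0.41, 0.07 and -0.81 in XYM. Complex V had a narrower range than complexes I, III and IV, with 0.00, 0.39, 0.27, 0.03 and 0.11 in XXF, 0.28, 0.40, 0.18 and -0.10 in XYF, 0.28, 0.17, -0.17, -0.09 and -0.28 in XXM, and -0.17, -0.48, -0.36, 0.06 and -0.55 in XYM. The mice kept a like order in each complex, with XYM 16 and XYM 12 lowest in complexes I, III, IV and V. Complex III ranged from -0.77 in XYM 16 to 0.58 in XXM 2. The assembly factors stayed between -0.44 in XYM 16 and 0.36 in XXF F2.

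**Figure D1:**
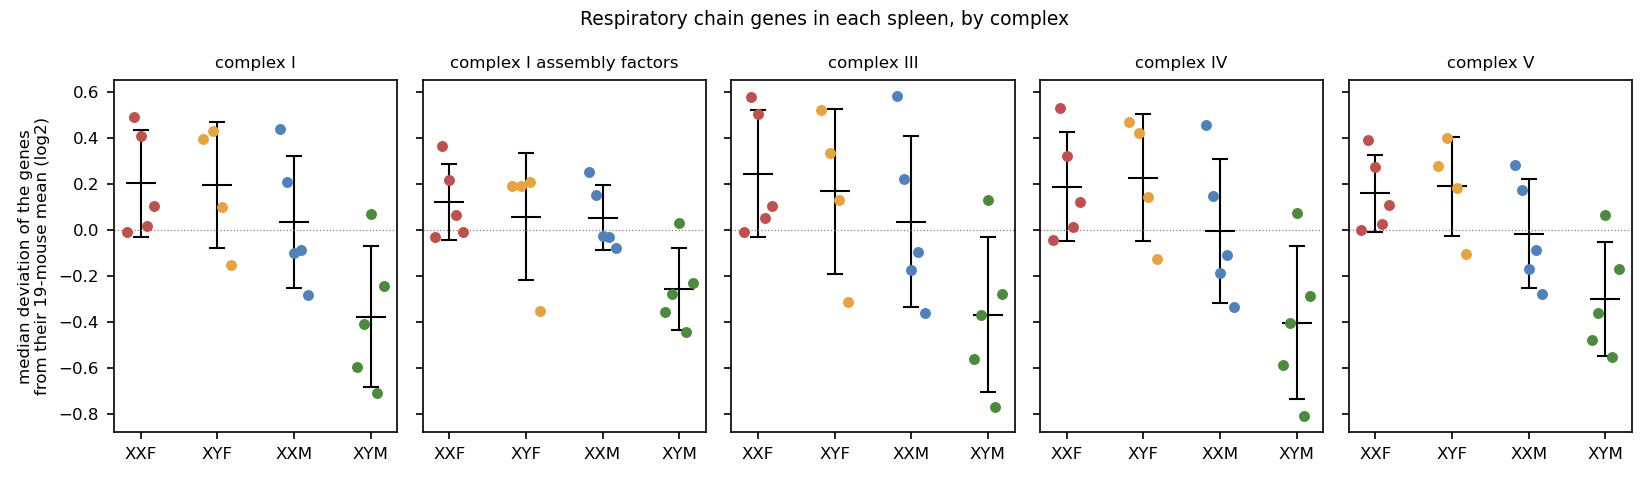
Median deviation of the genes of each complex from their mean over the 19 mice (log2, vertical axis) in XXF, XYF, XXM and XYM mice, 1 point a mouse, with the group mean and SD as bars. Mean values of XYM are the lowest in every panel, at -0.38 for complex I and -0.40 for complex IV, and XYM 15 sits above the other XYM mice.

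XYM minus XYF asks whether testes and the Sry transgene go with another level in mice with X and Y chromosomes. Of the 86 genes, 61 were lower in XYM and 1 was higher, beside 16.8% and 23.1% of all genes tested, and 33 of the lower and the 1 higher also passed the fold, beside 8.13% and 7.63%. The median difference over the 86 was -0.53, against 0.02 over all genes tested, and 81 of the 86 were below 0. The 86 genes tended to move together between mice of a group. Their mean pairwise r within groups was 0.60, against 0.03 over all genes tested. Counts of these genes, here and in the other comparisons, are therefore not counts of independent replicates. In 2 alternatives chosen after seeing the data, 37 were lower with library size as a covariate and 38 with XYF F6 and XXM 2, the smallest libraries of their groups, left out, beside 1678 and 1368 of all genes against 2381 before. Without XYF F6 the count past the adjusted p fell to 34 genes and without XYM 16 to 40, with 1290 and 1650 of all genes lower, and the count past the fold was 19 without XYF F6 and 22 without XYM 12 or XYM 16. Of all genes, 710, 853 and 870 were lower past the fold without XYF F6, XYM 12 and XYM 16, against 1154 before. Higher past the fold were 685, 782 and 833, against 1082. In 12 genes every XYM mouse was below every XYF mouse, a pattern seen in 3.86% of all genes tested. The direction of the median was the same under median ratio rescaling (-0.58), quantile normalization (-0.42) and removal of a curve on gene length (-0.28).

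By complex, the lower genes numbered 28 of 36 in complex I (median -0.54), 1 of 8 assembly factors (-0.25), 5 of 7 in complex III (-0.58), 12 of 16 in complex IV (-0.69), 13 of 17 in complex V (-0.46) and 2 of 2 pseudogenes (-0.64). Past the fold were 14, 1, 3, 9, 5 and 1 of these. With the length curve removed, 17, 1, 3, 8, 8 and 1 were lower, in the same order, beside 2257 of all 14186 genes.

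XXM minus XYM asks whether the sex chromosomes go with another level in mice with testes. Here 6 genes were higher and 0 lower in limma, beside 4.48% and 3.38% of all genes tested, and 1 higher and 0 lower passed the fold, beside 1.13% and 1.83%. At an unadjusted p under 0.05 there were 37 of 86, against 27.1% of all genes. The median was 0.38 against 0.01, and 85 of 86 were above 0. It was 0.20 with the length curve removed and 0.23 with library size as a covariate. The 6 were Cox6a2, Cox8a, Ndufa12, Ndufb8, Ndufaf2 and Uqcrh-ps1. The share called, 6 of 86, is close to the background, and both single mice and settings moved it. Array weights, which let limma count some mice less, gave 51 higher, while library size as a covariate gave 0, the 2 compared groups alone and limma-voom 1 each, and removal of the length curve 2. Of all genes, 635 were higher in the reported fit, and 2781, 27, 82, 412 and 342 in these, in that order. Among the 86 genes the count was 0 without XXM 2, XXM 5, XXM 6, XYM 12, XYM 13 or XYM 16, 1 without XXF F4, XXF F5 or XYF F8, 4 without XYF F6, 10 without XYM 9, 14 without XYF F9, 20 without XXM 8 and 45 without XYM 15. Of all genes, 24 to 66 were higher where the count was 0, 264 to 479 where it was 1, 587 without XYF F6, 858 without XYM 9, 1010 without XYF F9, 917 without XXM 8 and 2158 without XYM 15. Past the fold, the count of 1 became 0 without XXF F4, XXF F5, XYF F8, XXM 2, XXM 5, XXM 6, XYM 12, XYM 13 or XYM 16, 2 without XXF F1, XXM 7 or XYF F9, 3 without XYM 9, 5 without XXM 8 and 17 without XYM 15. Of all genes, 161 were higher past the fold with every mouse kept. Where the count became 0 there were 20 to 136. There were 177, 264 and 204 without XXF F1, XXM 7 and XYF F9, in that order. There were 232 without XYM 9, 316 without XXM 8 and 550 without XYM 15.

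XXF minus XYF asks the same in mice with ovaries. limma called 0 genes higher and 0 lower, beside 1.55% and 0.881% of all genes tested, and 0 and 0 past the fold, beside 0.670% and 0.712%. limma-voom also called 0. At an unadjusted p under 0.05 there was 1 gene, Ndufaf2, against 18.7% of all genes, and its adjusted p of 0.176 was the lowest. The median was -0.01 against 0.06, with 40 genes above 0 and 46 below, and it was above 0 under quantile normalization (0.01), with library size as a covariate (0.0037), with XYF F6 and XXM 2 left out (0.06), and without XXF F1, XXF F4, XXF F5, XYF F6 or XYF F7, at most 0.06. Without XYF F7, 1 gene passed both thresholds: Cox6b2, at an adjusted p of 0.04. Of all genes, 286 were higher and 564 lower past both thresholds in that fit, against 95 and 101 with every mouse kept.

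XXM minus XXF asks whether testes and the transgene matter in mice with X chromosomes only. In it 1 gene was higher (Cox6a2) and 0 lower in limma, beside 4.70% and 4.80% of all genes tested. Past the fold the counts were 1 and 0, beside 1.30% and 2.91%. There were 7 genes at an unadjusted p under 0.05, against 19.8% of all genes. The median was -0.15 against -0.01, and 71 of 86 were below 0. It was -0.09 with the length curve removed and without XXF F2 or XXM 8, and -0.24 without XXM 2. Array weights gave 4 higher and 11 lower, beside 1695 and 1572 of all genes, and removal of the length curve 5 higher and 2 lower, beside 1063 and 865. Without XXM 2 the count was 4 (750 higher and 604 lower of all genes), and without XYF F9 (746 and 756) or XYM 9 (742 and 755) it was 2. Past the fold it was 0 without XXF F1, XXF F3, XXF F5 or XXM 8, and 3 without XXM 2. Of all genes, 185 were higher and 413 lower past the fold with every mouse kept. They were 137 and 384 without XXF F1, 189 and 424 without XXF F3, and 177 and 367 without XXF F5. Without XXM 8 they were 173 and 397, and without XXM 2 they were 196 and 385.

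The interaction, which takes the XX minus XY difference in males minus that in females, tests whether the sex chromosome difference depends on the gonads. limma called 0 genes higher and 0 lower, beside 0.0282% and 0.0564% of all genes tested, and the same 0 and 0 past the fold, beside 0.0282% and 0.0564%. limma-voom called 0 as well, array weights gave 21 higher with 15 past the fold, beside 1268 higher and 2279 lower of all genes, and removal of the length curve gave 1. The lowest adjusted p was 0.13, and 12 genes had an unadjusted p under 0.05, against 21.0% of all genes. The median was 0.36 against -0.02, with 83 of 86 above 0. It was 0.18 with the length curve removed, 0.19 with XYF F6 and XXM 2 left out and 0.22 with library size as a covariate. Leaving out 1 mouse gave 8 genes past the adjusted p without XYM 9, 5 without XYM 15, 4 without XXF F3 and 3 without XYF F8, and 6, 5, 4 and 3 past the fold. Of all genes, 4 were higher and 8 lower with every mouse kept, 796 and 1623 without XYM 9, 317 and 708 without XYM 15, 391 and 1251 without XXF F3, and 218 and 762 without XYF F8. Past the fold these were 4 and 8, 611 and 1083, 244 and 564, 300 and 897, and 182 and 567, in that order. So the male and female differences are not shown to differ in these genes by this fit. XXM minus XYM and XYM minus XYF share the XYM mice, whose levels were the lowest, so these results are not independent of each other.

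**Figure D2:**
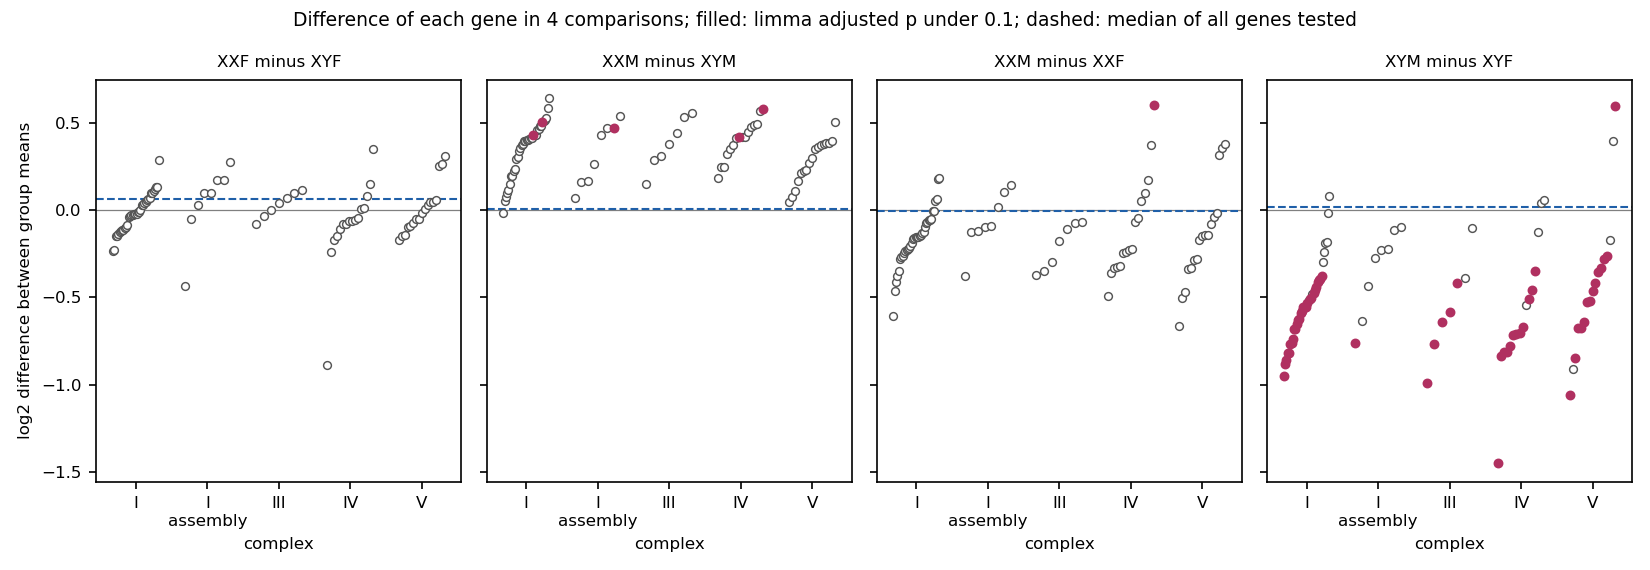
Log2 difference of each gene (vertical axis) by complex (horizontal axis) in 4 comparisons. Filled points have a limma adjusted p under 0.1, and the dashed line is the median of all genes tested. In XYM minus XYF, 28 of 36 genes of complex I and 12 of 16 of complex IV are filled below 0, and in XXF minus XYF none of the 86 is filled.

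In complex I, the accessory subunit Ndufb9 of the membrane arm had RPKM of 89.2, 139, 138, 101 and 106 in XXF, 176, 134, 116 and 114 in XYF, 136, 107, 95.0, 86.3 and 78.6 in XXM, and 87.4, 51.6, 68.2, 92.9 and 51.6 in XYM. Every XYM mouse was below every XYF mouse, with XYM 12 and XYM 16 lowest, and XYF F6 was the highest of all 19. It had the largest fall of the complex (log2 difference -0.95, SE 0.20, adjusted p 0.00484), past the threshold in 33 of 33 alternatives with an adjusted p of 0.00197 to 0.0379. Ndufb8, also of the membrane arm, was at 116, 161, 149.9, 114 and 112 in XXF, 159.8, 152, 120.1 and 121 in XYF, 156, 128, 107, 109.6 and 89.99 in XXM, and 94.8, 66.2, 79.9, 108 and 66.7 in XYM. XYM and XYF again did not overlap, and XXM 6 and XXM 8 fell within the XYM range. XYM was below XYF (log2 difference -0.74, SE 0.18, adjusted p 0.00736) and below XXM (log2 difference 0.50, SE 0.17, adjusted p 0.0959 for XXM minus XYM). The interaction was 0.59, adjusted p 0.183. The call against XXM was lost without XXF F4 (0.11), XXF F5 (0.115), XYF F6 (0.1), XYF F8 (0.104), XXM 2 (0.251), XXM 5 (0.198), XXM 6 (0.142), XYM 12 (0.229), XYM 13 (0.201) and XYM 16 (0.21), the adjusted p being 0.0129 to 0.315 over all alternatives. Values in parentheses beside a mouse are the adjusted p without it.

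Ndufa10, an accessory subunit related to nucleoside kinases, was at 80.3, 88.6, 77.4, 73.5 and 74.7 in XXF, 82.7, 92.4, 73.7 and 72.4 in XYF, 69.3, 71.4, 69.4, 69.2 and 61.2 in XXM, and 58.3, 59.6, 58.4, 66.3 and 63.8 in XYM. The XYM mice spread little, from 58.3 to 66.3, and lay below all XYF and XXF mice. The XYM minus XYF test gave log2 difference -0.38, SE 0.09, adjusted p 0.00618, past the threshold in 33 of 33 alternatives. XXM was also below XXF in every mouse, which limma did not call (log2 difference -0.21, SE 0.08, adjusted p 0.148). Ndufa12, an accessory subunit of the arm that holds the NADH site, was at 21.9, 28.6, 20.8, 18.04 and 18.1 in XXF, 27.9, 22.6, 24.5 and 19.8 in XYF, 20.7, 24.8, 30.5, 25.1 and 20.5 in XXM, and 17.95, 13.9, 17.1, 19.5 and 20.2 in XYM. All XXM mice were above all XYM mice, by a small margin at XXM 8, while XYM 16 reached into the XYF range. It was called in XXM minus XYM (log2 difference 0.43, SE 0.14, adjusted p 0.0923) and in XYM minus XYF (log2 difference -0.40, SE 0.15, adjusted p 0.0482), with an interaction of 0.58, adjusted p 0.148 (past the threshold in 2 of 32 alternatives, adjusted p 0.0277 to 0.384). The former call was lost without XXF F4 (0.104), XXF F5 (0.11), XYF F8 (0.104), XXM 2 (0.177), XXM 5 (0.183), XXM 6 (0.16), XXM 7 (0.107), XYM 12 (0.225), XYM 13 (0.198) and XYM 16 (0.147), the adjusted p being 0.0113 to 0.315 over all alternatives, and the latter without XYF F6 (0.164) and XYM 12 (0.128), the adjusted p being 0.0257 to 0.679 over all alternatives.

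Of the core subunits, Ndufv1, which binds NADH, was at 52.4, 63.9, 66.2, 51.9 and 56.0 in XXF, 69.0, 58.5, 56.4 and 53.7 in XYF, 52.9, 55.7, 44.5, 53.9 and 51.2 in XXM, and 53.0, 40.5, 46.8, 49.9 and 36.1 in XYM. XYM and XYF did not overlap, with XYM 9 close to XYF F9 (log2 difference -0.39, SE 0.12, adjusted p 0.0204). Ndufs1, the largest iron-sulfur subunit, was at 34.1, 29.5, 32.1, 32.0 and 30.2 in XXF, 37.5, 28.7, 36.1 and 34.2 in XYF, 28.8, 34.2, 32.1, 36.2 and 34.5 in XXM, and 40.1, 33.2, 32.6, 33.4 and 29.1 in XYM. Its groups overlapped throughout, and XYM 9 held the highest value (log2 difference -0.02, SE 0.10, adjusted p 0.897). Ndufa3, the most abundant gene of the complex, was at 212, 349.7, 308, 212 and 257 in XXF, 296, 312, 236 and 199.7 in XYF, 326, 248, 201, 191 and 185 in XXM, and 192, 140.3, 152, 265 and 131 in XYM. Only XYM 15 among the XYM mice reached the XYF range (log2 difference -0.59, SE 0.22, adjusted p 0.0525), and the call was lost without XYF F6 (0.148), XYF F7 (0.135), XYM 12 (0.121), XYM 13 (0.103) and XYM 16 (0.13), the adjusted p being 0.0115 to 0.155 over all alternatives. Ndufb2, a small membrane arm subunit, was at 39.1, 70.6, 64.0, 48.0 and 50.3 in XXF, 63.0, 75.4, 49.4 and 31.4 in XYF, 61.1, 46.4, 25.7, 27.8 and 24.2 in XXM, and 29.2, 23.9, 27.2, 49.0 and 17.8 in XYM. XYF F9 and XXM 6, 7 and 8 were low together with most XYM mice (log2 difference -0.88, SE 0.31, adjusted p 0.0398). The Ndufb2 call was lost without XYF F6 (0.119), XYF F7 (0.12) and XYM 16 (0.106), the adjusted p being 0.0104 to 0.122 over all alternatives.

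Ndufb7, whose promoter is printed above, was at 115, 189, 202, 123 and 141 in XXF, 187, 193, 139 and 142 in XYF, 200.002, 169.7, 131, 129 and 112 in XXM, and 135, 81.6, 94.8, 137 and 75.3 in XYM. XYM 9 and XYM 15 lay just under the lowest XYF mouse, and the other XYM mice far under it (log2 difference -0.68, SE 0.22, adjusted p 0.0293). It and Ndufv3 (log2 difference -0.47, SE 0.13, adjusted p 0.0129), a small subunit next to Ndufv1, are named after their values were seen, as genes whose XYM and XYF mice do not overlap.

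Among the assembly factors, Ndufaf2, a paralog of Ndufa12 that is present during assembly before Ndufa12 takes its place, was at 11.7, 19.9, 16.8, 12.6 and 13.3 in XXF, 21.9, 23.8, 18.6 and 16.7 in XYF, 19.7, 17.3, 15.9, 13.5 and 15.3 in XXM, and 12.4, 8.79, 12.2, 14.2 and 10.2 in XYM. All XYM mice were below all XYF mice, and the XXF and XYF mice overlapped. XYM minus XYF gave log2 difference -0.76, SE 0.16, adjusted p 0.00424 and XXM minus XYM gave log2 difference 0.47, SE 0.15, adjusted p 0.0904, while XXF minus XYF was not called (log2 difference -0.43, SE 0.16, adjusted p 0.176) except with the length curve removed (-0.46, adjusted p 0.0179), the adjusted p being 0.0179 to 0.354 over all alternatives. Its interaction had the lowest adjusted p of the 86 genes but missed the threshold (log2 difference 0.91, SE 0.22, adjusted p 0.13), and passed it without XXF F3 (0.0673), XYF F8 (0.0756), XYM 15 (0.0849) and XYM 9 (0.0467), the adjusted p being 0.0225 to 0.379 over all alternatives. The XXM minus XYM call was lost without XXF F4 (0.103), XXF F5 (0.111), XYF F8 (0.101), XXM 2 (0.226), XXM 5 (0.184), XXM 6 (0.144), XYM 12 (0.221), XYM 13 (0.187) and XYM 16 (0.183), the adjusted p being 0.0184 to 0.283 over all alternatives. Ndufaf2 shares 64% of its 51-base stretches with other genes, the most of the 90 genes matched to transcripts. The other 7 assembly factors were not called in XYM minus XYF. Ndufaf8 was at 25.2, 41.8, 43.4, 29.4 and 29.5 in XXF, 29.3, 40.4, 30.6 and 14.8 in XYF, 40.3, 36.3, 21.8, 18.5 and 17.3 in XXM, and 17.7, 14.3, 15.4, 29.2 and 12.6 in XYM, with XYF F9 as low as the XYM mice (log2 difference -0.64, SE 0.30, adjusted p 0.111), and its partner Ndufaf5 gave log2 difference -0.22, SE 0.15, adjusted p 0.269.

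In complex III, Uqcrc1, a core protein on the matrix side, was at 97.3, 113, 107, 85.3 and 95.5 in XXF, 117, 106, 95.1 and 90.3 in XYF, 109.9, 100.1, 89.6, 91.8 and 81.6 in XXM, and 84.9, 65.4, 74.7, 88.4 and 67.7 in XYM. All XYM mice were below all XYF mice, XYM 15 by little (log2 difference -0.42, SE 0.12, adjusted p 0.0156), and the call held in 33 of 33 alternatives. Uqcrq, a small subunit bound to cytochrome b, was at 104, 183, 170.1, 126 and 118 in XXF, 179, 190.1, 134 and 97.2 in XYF, 180.4, 138, 84.5, 97.2 and 69.2 in XXM, and 73.6, 60.3, 71.6, 119 and 52.7 in XYM. XYM 15 lay above XYF F9 and the other XYM mice lay below all XYF mice, while XXM 6, 7 and 8 lay within the XYM range. Its fall was the largest of the complex (log2 difference -0.99, SE 0.28, adjusted p 0.0168), held in 33 of 33 alternatives. Uqcrh was at 318, 538, 513, 353 and 411 in XXF, 504.1, 497, 385 and 259 in XYF, 574, 403, 356, 305 and 273 in XXM, and 239, 226, 238, 399 and 206 in XYM. XYM 15 stood far above the other XYM mice (log2 difference -0.64, SE 0.25, adjusted p 0.0582), and the call was lost without XYF F6 (0.18), XYF F7 (0.15), XYM 12 (0.118), XYM 13 (0.102) and XYM 16 (0.132), the adjusted p being 0.0125 to 0.18 over all alternatives. Uqcrfs1, the Rieske iron-sulfur protein, had RPKM of 84.3, 111, 110.0, 82.3 and 97.2 in XXF, 116, 98.0, 87.1 and 65.4 in XYF, 119.7, 107, 70.7, 84.3 and 73.5 in XXM, and 79.0, 62.5, 69.4, 89.99 and 47.9 in XYM. XYF F8 and XYF F9 lay within the XYM range, and limma did not call the gene (log2 difference -0.39, SE 0.20, adjusted p 0.135). Uqcr11 had too few reads to compare.

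In complex IV, Cox4i1, the most abundant of all 91 genes, was at 432, 685, 634, 449 and 484 in XXF, 628, 629.8, 472 and 405 in XYF, 644, 527, 373, 400.7 and 359 in XXM, and 359, 275, 321, 452 and 241 in XYM. Only XYM 15 overlapped the XYF mice, and XXM 2 was above all other XXM mice. XYM minus XYF gave log2 difference -0.70, SE 0.22, adjusted p 0.0247, held in 33 of 33 alternatives, and XXM minus XYM was not called (log2 difference 0.48, SE 0.21, adjusted p 0.15). Cox4i2, the isoform known from lung, stayed under an RPKM of 1 in every mouse. Its call (log2 difference -0.35, SE 0.14, adjusted p 0.0707) rested on 1 to 13 reads a mouse, and was lost without XYF F7 (0.15), XYF F9 (0.216), XYM 12 (0.147), XYM 13 (0.144) and XYM 16 (0.15), the adjusted p being 0.0297 to 0.836 over all alternatives. Cox5a, on the matrix side, was at 134, 227, 208, 127 and 164 in XXF, 225, 198, 162 and 130.3 in XYF, 253, 171, 100.2, 126 and 109.9 in XXM, and 129, 82.6, 109, 174 and 68.3 in XYM. XYM 15 lay among the XYF mice, and XXM 2 was the highest of all (log2 difference -0.71, SE 0.29, adjusted p 0.0688). The Cox5a call was lost without XYF F6 (0.198), XYF F7 (0.14), XYM 12 (0.153), XYM 13 (0.102) and XYM 16 (0.175), the adjusted p being 0.0256 to 0.202 over all alternatives. Cox5b, which binds zinc, was at 27.5, 41.1, 35.0, 27.6 and 29.7 in XXF, 42.8, 40.3, 34.5 and 33.8 in XYF, 38.4, 28.1, 40.1, 31.2 and 28.9 in XXM, and 25.7, 21.7, 23.6, 31.0 and 30.1 in XYM. XYM and XYF did not overlap (log2 difference -0.51, SE 0.14, adjusted p 0.0161), but with the length curve removed the adjusted p was 0.236. Its interaction missed the threshold (log2 difference 0.56, SE 0.20, adjusted p 0.148), and passed it without XXF F3 (0.0952), XYM 15 (0.0966) and XYM 9 (0.0962), the adjusted p being 0.0374 to 0.424 over all alternatives.

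Cox6a1 and Cox6a2 are the liver and the heart and muscle isoform of 1 subunit. Cox6a1, whose promoter holds both motifs, was at 183, 282, 273, 191 and 218 in XXF, 323, 257, 198 and 183 in XYF, 258, 191, 158, 173 and 138 in XXM, and 151, 97.1, 132, 195 and 102 in XYM. XYM 15 overlapped XYF F9 and the other XYM mice did not (log2 difference -0.83, SE 0.23, adjusted p 0.0137), with the call held in 33 of 33 alternatives. Cox6a2 was far lower, at 4.18, 5.99, 4.26, 6.54 and 3.35 in XXF, 5.79, 5.21, 3.72 and 7.33 in XYF, 8.01, 6.59, 7.33, 7.90 and 8.97 in XXM, and 5.25, 4.97, 4.18, 5.78 and 4.19 in XYM. The XXM mice were above every XYM mouse and above every XXF mouse, though XXM 5 and XXF F4 were close. XXM minus XXF gave log2 difference 0.60, SE 0.16, adjusted p 0.0281, past the threshold in 33 of 33 alternatives, and XXM minus XYM gave log2 difference 0.58, SE 0.16, adjusted p 0.0727. The second call was lost without XXM 2 (0.179), XXM 5 (0.124), XXM 6 (0.124), XYM 12 (0.156), XYM 13 (0.182) and XYM 16 (0.153), the adjusted p being 0.00988 to 0.272 over all alternatives. In XYM minus XYF the gene was not called (log2 difference -0.13, SE 0.17, adjusted p 0.58), and its interaction was 0.73, adjusted p 0.135, passing the threshold without XXF F3 (0.0971), XYF F8 (0.0756), XYM 15 (0.0921) and XYM 9 (0.0697), the adjusted p being 0.0592 to 0.384 over all alternatives. It was the only gene of the 86 called in XXM minus XXF. Cox6a2 overlaps Itgad, for which XXM minus XXF was -0.70 with an adjusted p of 0.134 and XXM minus XYM -0.07 with 0.886.

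Cox6b1 was at 289.6, 447, 424, 286 and 336 in XXF, 456, 394, 342 and 291 in XYF, 441, 327, 268, 256 and 232 in XXM, and 244, 184, 216, 316 and 177 in XYM. XYM 15 was above XYF F9 and the other XYM mice were below all XYF mice (log2 difference -0.71, SE 0.21, adjusted p 0.0197). Its testis isoform Cox6b2 was at 7.93, 6.97, 8.05, 4.66 and 5.82 in XXF, 31.5, 3.56, 13.8 and 16.7 in XYF, 4.92, 5.24, 6.97, 6.25 and 8.23 in XXM, and 10.2, 2.61, 5.97, 3.92 and 1.55 in XYM. XYF F6 was the highest by far and XYF F7 lay among the XYM mice, so that the XYF group was the widest. This gave the largest fall of the 86 genes (log2 difference -1.45, SE 0.44, adjusted p 0.0221), and the call was lost without XYF F6 (0.103), the adjusted p being 0.00383 to 0.106 over all alternatives. Cox7a2, the liver isoform, was at 66.5, 99.8, 75.5, 75.3 and 71.1 in XXF, 103, 89.9, 82.2 and 56.6 in XYF, 79.9, 67.2, 44.3, 49.6 and 40.4 in XXM, and 52.7, 40.7, 48.4, 63.7 and 30.2 in XYM. XYM 15 overlapped XYF F9 only (log2 difference -0.81, SE 0.22, adjusted p 0.0147). Its muscle isoform Cox7a1 had RPKM from 1.58 to 3.56 (log2 difference 0.06, SE 0.17, adjusted p 0.812), and Cox7a2l, which links complexes III and IV into supercomplexes, had RPKM from 91.7 to 289 (log2 difference -0.54, SE 0.28, adjusted p 0.148). Neither was called.

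Cox8a, the ubiquitous isoform of the smallest subunit, was at 202, 251, 246, 189.7 and 216 in XXF, 229, 254, 199.7 and 194 in XYF, 271, 225, 209, 207 and 164 in XXM, and 165, 137, 151, 205 and 144 in XYM. XYM 15 alone among the XYM mice reached the XYF range, and XXM 8 alone among the XXM mice fell into the XYM range. It was called in XYM minus XYF (log2 difference -0.46, SE 0.15, adjusted p 0.0283) and XXM minus XYM (log2 difference 0.42, SE 0.14, adjusted p 0.0959), with an interaction of 0.41, adjusted p 0.248. With the length curve removed the first had an adjusted p of 0.195, and the second was lost without XXF F2 (0.1), XXF F4 (0.107), XXF F5 (0.117), XYF F6 (0.103), XYF F8 (0.105), XXM 2 (0.248), XXM 5 (0.191), XXM 6 (0.147), XXM 7 (0.1), XYM 12 (0.225), XYM 13 (0.205) and XYM 16 (0.198), the adjusted p being 0.0116 to 0.304 over all alternatives. The muscle and testis isoforms Cox8b and Cox8c, and Cox7b2, had no read or 1 read in all. Ndufa4, first counted to complex I and now to complex IV, was at 191, 281, 243, 223 and 189 in XXF, 284, 266, 233 and 159 in XYF, 311, 227, 157, 172 and 123 in XXM, and 143, 109.8, 136, 206 and 97.3 in XYM. XYM 15 was in the XYF range and XXM 2 was the highest (log2 difference -0.78, SE 0.25, adjusted p 0.0289). The Ndufa4 call was lost without XYF F6 (0.102), the adjusted p being 0.0091 to 0.102 over all alternatives. Its relative Ndufa4l2 had 0 to 9 reads a mouse.

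**Figure D3:**
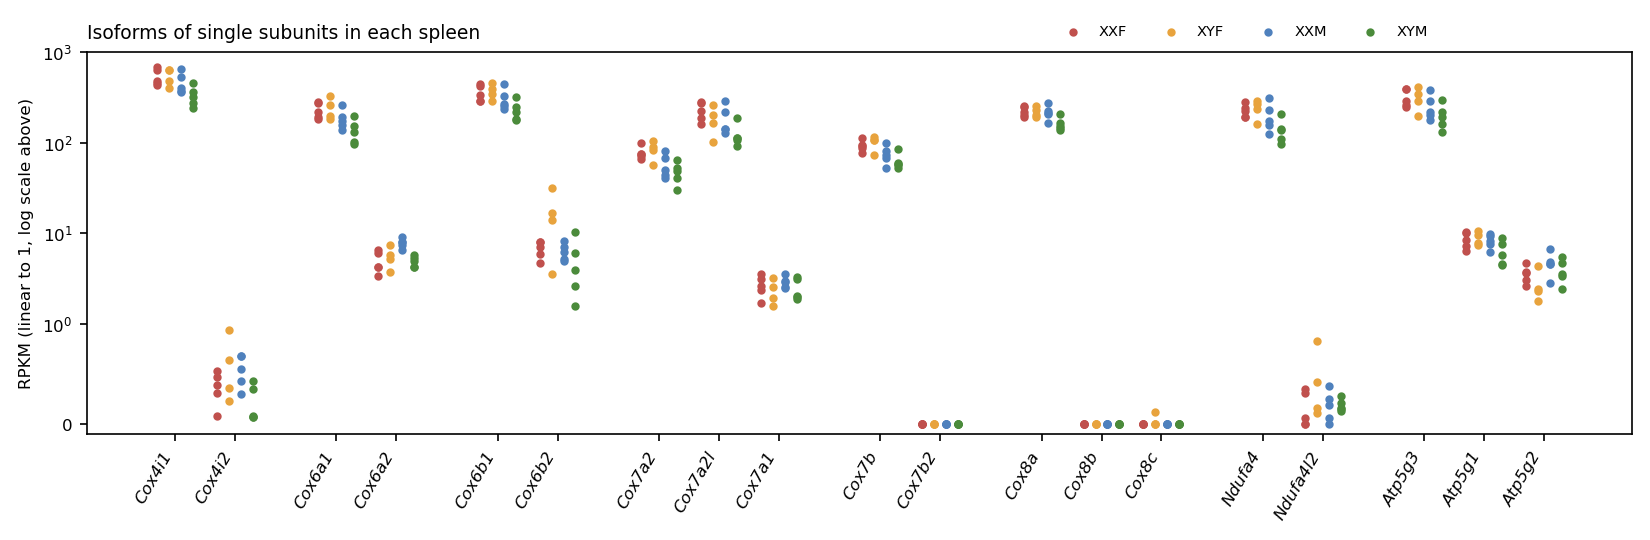
RPKM (vertical axis, linear to 1 and logarithmic above) of the isoforms of single subunits, 1 point a mouse, colored by group. Cox4i1, with a mean of 462, lies far above Cox4i2, and Cox7b2 and Cox8b sit at 0 in all 19 mice.

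In complex V, Atp5o, which joins the catalytic head to the outer stalk, was at 124, 165, 140.1, 119.5 and 125 in XXF, 159, 161, 132 and 124 in XYF, 132, 120.4, 97.2, 114 and 89.9 in XXM, and 93.5, 86.3, 88.9, 102 and 76.6 in XYM. All XYM mice were below all XYF and all XXF mice, and XXM 6 and XXM 8 lay within the XYM range. It had the lowest adjusted p of the 86 genes in XYM minus XYF (log2 difference -0.68, SE 0.13, adjusted p 0.00305), and the difference was -0.76 to -0.39 over 33 of 33 alternatives past the threshold, with adjusted p of 0.00192 to 0.0362. XXM minus XYM was not called (log2 difference 0.30, SE 0.12, adjusted p 0.139). Up to 41.2% of its 51-base stretches are shared with other genes. Atp5j, coupling factor 6 of the same stalk, was at 102, 127, 88.2, 103 and 101 in XXF, 112, 133, 114 and 101 in XYF, 95.9, 92.8, 77.0, 84.3 and 77.0 in XXM, and 90.6, 70.4, 81.02, 93.2 and 63.4 in XYM. XYM and XYF did not overlap, and all XXM mice but XXM 2 lay within the XYM range (log2 difference -0.53, SE 0.13, adjusted p 0.00781). The gene overlaps Gabpa, a subunit of the GABP factor, which went the other way (0.64, adjusted p 0.00607).

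Atp5k was at 159, 272, 212, 168 and 184 in XXF, 274, 259.6, 204 and 161 in XYF, 219.8, 159, 102, 124 and 109.9 in XXM, and 124, 87.1, 105, 181 and 62.4 in XYM. XYM 15 lay among the XYF mice and the other XYM mice lay below them, while all XXM mice but XXM 2 lay within the XYM range. Its fall was the largest of complex V (log2 difference -1.06, SE 0.27, adjusted p 0.0111), held in 33 of 33 alternatives. Of the catalytic head, Atp5a1 (alpha) was at 301, 329.9, 338, 280.5 and 301 in XXF, 344, 307, 296 and 259 in XYF, 301, 295, 253, 291 and 262 in XXM, and 266, 228, 244, 292 and 223 in XYM. XYM 9 and XYM 15 overlapped the XYF mice (log2 difference -0.26, SE 0.11, adjusted p 0.0707). Under quantile normalization its adjusted p was 0.792, and the call was lost without XYF F6 (0.229), XYF F7 (0.126), XYM 12 (0.154), XYM 13 (0.121) and XYM 16 (0.162), the adjusted p being 0.0216 to 0.792 over all alternatives. Atp5b (beta) was at 432, 454, 375, 387 and 399.9 in XXF, 459, 406, 427 and 405 in XYF, 362, 374, 336, 408 and 364 in XXM, and 400.9, 326, 342, 389 and 296 in XYM. XYM and XYF did not overlap, XYM 9 being just below XYF F9 (log2 difference -0.28, SE 0.11, adjusted p 0.0557). Under quantile normalization its adjusted p was 0.682, and the call was lost without XYF F6 (0.16), XYM 12 (0.12) and XYM 16 (0.148), the adjusted p being 0.0208 to 0.682 over all alternatives. Atp5e, the epsilon subunit, had a fall of similar size to Atp5k that was not called (log2 difference -0.91, SE 0.45, adjusted p 0.133), and is named after its values were seen.

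Atp5g1, Atp5g2 and Atp5g3 encode the same c subunit of the rotor ring. Atp5g3 was at 248, 389, 387, 259 and 289 in XXF, 408, 343, 291 and 195 in XYF, 385, 291, 177, 216 and 201 in XXM, and 217, 161, 193, 292 and 129 in XYM. XYF F8 and XYF F9 lay within the XYM range, XYF F8 just below XYM 15 (log2 difference -0.64, SE 0.26, adjusted p 0.0727), and the call was lost without XYF F6 (0.23), XYF F7 (0.154), XYM 12 (0.149), XYM 13 (0.108) and XYM 16 (0.181), the adjusted p being 0.0205 to 0.23 over all alternatives. Atp5g1, with RPKM from 4.42 to 10.4, gave log2 difference -0.46, SE 0.18, adjusted p 0.063, a call lost without XYF F6 (0.156), XYF F7 (0.161), XYM 12 (0.159), XYM 13 (0.107) and XYM 16 (0.155), the adjusted p being 0.0212 to 0.269 over all alternatives. Atp5g2 was not called in XYM minus XYF (log2 difference 0.40, SE 0.22, adjusted p 0.17), with a difference above 0, nor in XXF minus XYF (log2 difference 0.31, SE 0.22, adjusted p 0.444). Atp5sl was the 1 gene called higher in XYM. Its symbol places it with complex V, but the protein, also known as Dmac2, is described as an assembly factor of the complex I membrane arm. It was at 27.6, 28.0, 22.4, 30.3 and 29.0 in XXF, 20.3, 27.6, 27.6 and 16.8 in XYF, 29.5, 38.0, 41.8, 35.7 and 35.6 in XXM, and 24.7, 37.6, 35.4, 38.4 and 39.7 in XYM. XYM 9 lay within the XYF range and the other XYM mice lay above it (log2 difference 0.60, SE 0.16, adjusted p 0.0122), with the call held in 33 of 33 alternatives. In XXM minus XXF it was not called (log2 difference 0.38, SE 0.15, adjusted p 0.146), and passed the threshold without XYF F9 (0.0981), XXM 2 (0.096) and XYM 9 (0.0843), the adjusted p being 0.0149 to 0.317 over all alternatives.

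**Figure D4:**
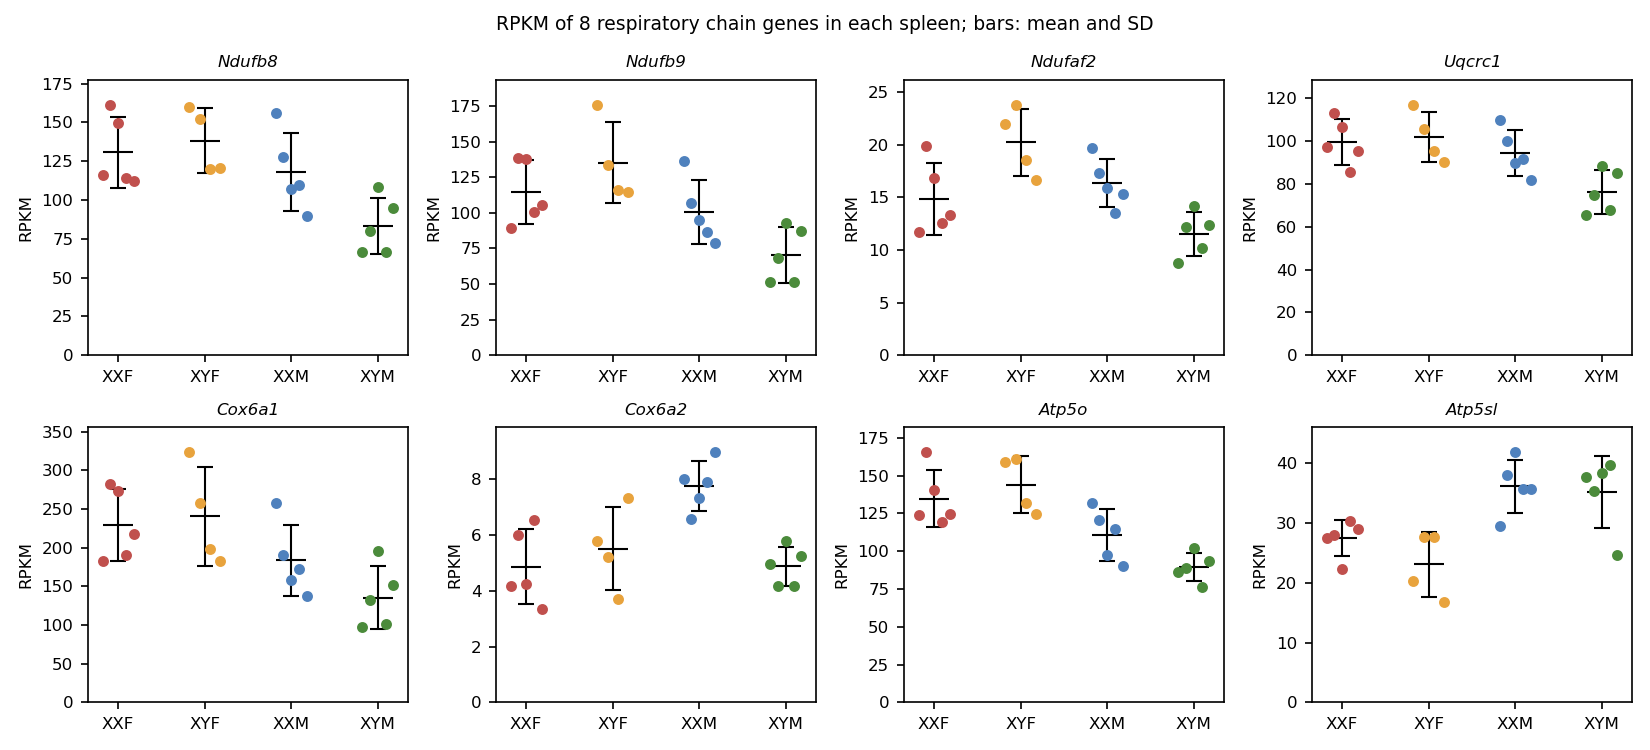
RPKM (vertical axis from 0) of 8 genes in XXF, XYF, XXM and XYM mice, 1 point a mouse, with the group mean and SD as bars. XYM points lie below all XYF points for Ndufb8, Ndufb9, Ndufaf2, Uqcrc1 and Atp5o, XXM points lie above all XYM points for Cox6a2, and Atp5sl is higher in 4 of 5 XYM mice than in any XYF mouse.

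The pseudogene Uqcrh-ps1 was at 8.53, 14.2, 8.19, 7.75 and 7.35 in XXF, 8.36, 10.2, 8.07 and 6.41 in XYF, 7.56, 8.05, 8.03, 6.26 and 4.50 in XXM, and 3.07, 4.48, 3.44, 6.94 and 2.25 in XYM. XYM 15 alone among the XYM mice was above XYF F9, and XXF F2 was the highest of all. It was called in XYM minus XYF (log2 difference -0.93, SE 0.23, adjusted p 0.00905) and XXM minus XYM (log2 difference 0.69, SE 0.22, adjusted p 0.0904), the latter lost without XXF F4 (0.104), XXF F5 (0.109), XYF F8 (0.102), XXM 2 (0.212), XXM 5 (0.186), XXM 6 (0.15), XYM 12 (0.174), XYM 13 (0.198), XYM 16 (0.202) and XYM 9 (0.101), the adjusted p being 0.0102 to 0.275 over all alternatives. The interaction was 0.57, adjusted p 0.295. Atp5c1-ps was lower in XYM than in XYF (log2 difference -0.35, SE 0.15, adjusted p 0.0804), a call lost without XYF F8 (0.125), XYF F9 (0.244), XYM 13 (0.161) and XYM 9 (0.148), the adjusted p being 0.0547 to 0.706 over all alternatives. Whether reads of the parent genes were counted on the copies was not tested.

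Of the 86 genes, Ndufa1, Ndufb11 and Cox7b lie on the X chromosome, of which XX mice have 2 copies. Ndufa1, of the membrane arm, was at 88.1, 125, 112, 96.4 and 98.1 in XXF, 127, 112, 102 and 79.8 in XYF, 119, 94.7, 76.7, 73.8 and 53.2 in XXM, and 77.3, 59.5, 69.7, 110.4 and 48.5 in XYM. XYM 15 lay among the XYF mice, and the XXF and XYF values overlapped throughout. Ndufb11 was at 100.1, 143, 134, 109 and 109.9 in XXF, 126, 133, 103 and 84.5 in XYF, 148, 126, 94.3, 96.0 and 80.6 in XXM, and 80.8, 65.7, 77.9, 105 and 57.6 in XYM. Cox7b was at 76.9, 111, 91.4, 93.7 and 87.8 in XXF, 108, 114, 106 and 72.4 in XYF, 99.2, 81.5, 68.1, 73.1 and 52.3 in XXM, and 58.6, 57.0, 59.1, 85.8 and 52.3 in XYM. XYM 15 was the highest XYM mouse in each. In XXF minus XYF the log2 differences were -0.01, 0.10 and -0.11, with adjusted p of 0.983, 0.794 and 0.762. In XXM minus XYM they were 0.19, 0.48 and 0.25, with adjusted p of 0.551, 0.12 and 0.335, beside a median of 0.38 over all 86 genes. In XYM minus XYF each was lower (-0.55, adjusted p 0.0675 for Ndufa1, -0.53, adjusted p 0.0454 for Ndufb11 and -0.67, adjusted p 0.0127 for Cox7b). The Ndufa1 call was lost without XYF F6 (0.198), XYF F7 (0.131), XYM 12 (0.145), XYM 13 (0.106) and XYM 16 (0.175), the adjusted p being 0.0182 to 0.216 over all alternatives, and that of Ndufb11 without XYF F6 (0.136), XYF F7 (0.125), XYM 12 (0.105) and XYM 16 (0.119), the adjusted p being 0.0179 to 0.136 over all alternatives.

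The genes are short. Their median length, recovered from the deposited values, was 680.5 bases (292 to 3632), against 2441.5 over all genes tested. In these libraries the differences went with length, over all genes mainly in comparisons that include XYM. In XYM minus XYF, Spearman's rho between length and log2 difference was 0.51 across the 86 genes and 0.45 across all 14186, and in XXM minus XYM -0.40 and -0.41. It was 0.09 and 0.15 in XXF minus XYF, and 0.35 and 0.10 in XXM minus XXF. These are relations across genes, which are not independent replicates. Among other genes of 500 to under 750 bases, the median XYM minus XYF difference was -0.35 with 202 of 606 lower, against -0.67 with 27 of 31 lower for the respiratory chain genes of that length. Under 500 bases the medians were -0.20 for other genes and -0.77 for 16 respiratory chain genes. In the class from 750 to under 1000 bases the medians were -0.31 and -0.49, and from 1500 to under 2500 bases -0.08 and -0.28. Other genes of 2500 bases or more had a median of 0.19, and the 4 respiratory chain genes of that length -0.17.

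In each mouse, the median deviation of the 1661 other genes under 750 bases was -0.08, 0.23, 0.19, 0.06 and 0.07 in XXF, 0.20, 0.27, 0.16 and -0.21 in XYF, 0.12, 0.08, -0.13, -0.11 and -0.22 in XXM, and -0.26, -0.23, -0.15, 0.07 and -0.29 in XYM. XYM 16, XYM 9, XYM 12, XXM 8 and XYF F9 were lowest, and XYF F7 and XXF F2 highest. With a smooth curve on gene length removed from each mouse, a step chosen after seeing the data, the median difference of the 86 genes in XYM minus XYF was -0.28 with 38 lower and 4 higher, beside 2257 and 2222 of all genes, and in XXM minus XYM 0.20 with 2 higher, beside 342. Its sign changed in 5 and 9 of the 86 genes in those comparisons. Past both thresholds were 7 genes in XYM minus XYF, against 34. Of all genes, 633 were higher and 968 lower past both, against 1082 and 1154. What makes the differences go with length was not tested.

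**Figure D5:**
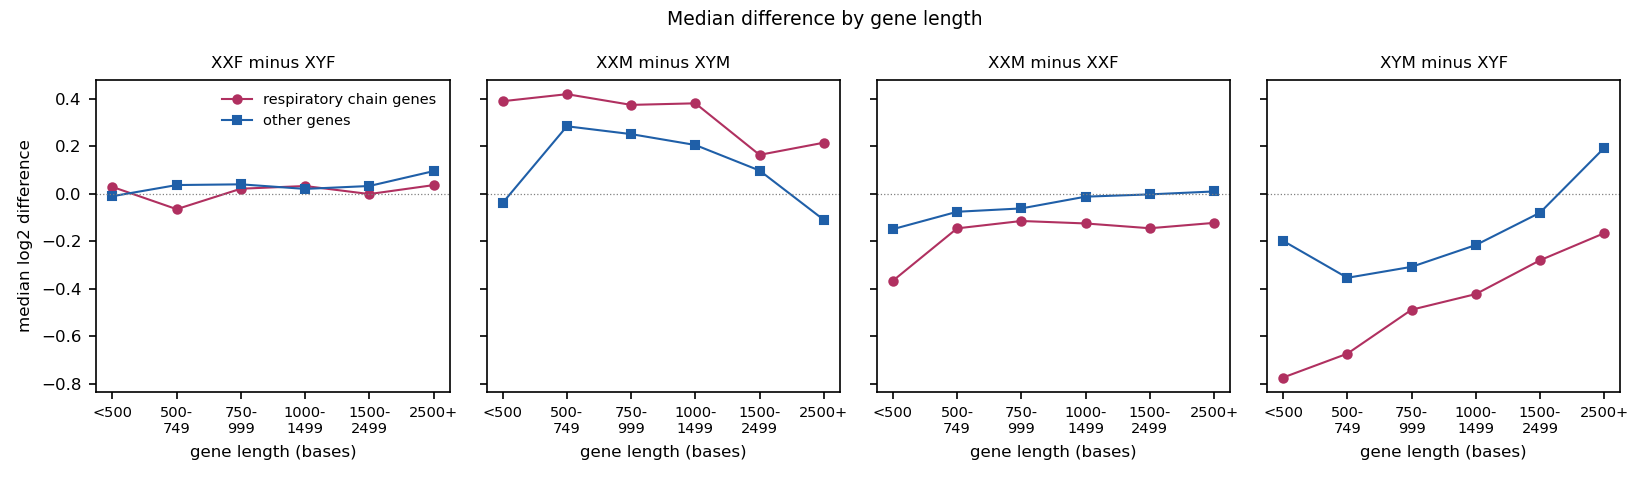
Median log2 difference (vertical axis) by class of gene length in bases (horizontal axis) for the respiratory chain genes and for all other genes tested, in 4 comparisons. In XYM minus XYF both lines rise with length above 500 bases, from -0.67 and -0.35 at 500 to under 750 bases to -0.17 and 0.19 at 2500 bases or more.

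Other genes of the pathway moved to different degrees in XYM minus XYF, in which 16.8% of all genes tested were lower and 23.1% higher. Of complex II, which feeds electrons from succinate, Sdhb (-0.54, adjusted p 0.0395) and Sdhc (-0.42, adjusted p 0.0301) were lower of 4 genes tested. Cytochrome c1 (Cyc1, -0.45, adjusted p 0.011) and cytochrome c (Cycs, -0.44, adjusted p 0.0233) were lower, 2 of 2. Of 37 assembly factors outside the symbol rule, 10 were lower and 4 higher, with the falls led by Pet100 (-0.86, adjusted p 0.0174), Uqcc2 (-0.84, adjusted p 0.0325) and the copper chaperone Cox17 (-0.84, adjusted p 0.0178). The 13 subunits encoded in mitochondrial DNA had a median of 0.32, opposite in sign to the nuclear genes, with 10 above 0 and 3 below. Of them 0 were called higher, and the 1 called was lower, mt-Nd3 (-0.60, adjusted p 0.013). Their summed RPKM was 26073, 15922, 12391, 25781 and 19654 in XXF, 11425, 19533, 19419 and 17383 in XYF, 14381, 15901, 21416, 19856 and 16927 in XXM, and 16775, 25230, 20351, 15861 and 28382 in XYM. XYM 16, XXF F1, XXF F4 and XYM 12 had the highest sums, and XYF F6 and XXF F3 the lowest. The XYM and XYF sums overlapped.

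Of 13 regulators of mitochondrial biogenesis, 6 were higher in XYM than in XYF, where 23.1% of all genes were: Gabpa (0.64, adjusted p 0.00607), the mitochondrial RNA polymerase Polrmt (0.40, adjusted p 0.0235), Pprc1 (0.33, adjusted p 0.0429), Ppargc1a (0.27, adjusted p 0.0176), Gabpb1 (0.27, adjusted p 0.0421) and Yy1 (0.18, adjusted p 0.0773). In XXM minus XYM, Gabpa was lower (-0.45, adjusted p 0.0863) and Esrra higher (0.38, adjusted p 0.0909), and in XXM minus XXF Ppargc1a (0.25, adjusted p 0.054) and Nrf1 (0.24, adjusted p 0.0757) were higher. Of 14 enzymes of the tricarboxylic acid cycle, Idh2 (-0.46, adjusted p 0.0218) and Mdh2 (-0.34, adjusted p 0.0229) were lower in XYM, where 16.8% of all genes were, and the median of 0.01 changed sign under median ratio rescaling (-0.04) and with the length curve removed (-0.02). Sucla2 was higher in XXM minus XYM (0.28, adjusted p 0.0941). Of 14 glycolytic enzymes, 4 were lower, led by Pfkm (-1.15, adjusted p 0.00382) and Ldha (-0.64, adjusted p 0.00854), and Pfkp was higher (0.32, adjusted p 0.0466).

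Of 77 mitochondrial ribosomal protein genes, 45 were lower in XYM minus XYF (median -0.36) and 15 higher in XXM minus XYM (median 0.31). Of 81 cytosolic ones, 17 were lower (median -0.45) and 6 higher (median 0.47). Of all genes tested, 16.8% were lower in XYM minus XYF and 4.48% higher in XXM minus XYM. With the length curve removed, 28 and 7 were lower in XYM minus XYF, beside 2257 of all 14186 genes, with medians of -0.18 and -0.18. In the latter list 1 gene was then higher.

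Cell markers differed between the same mice. In XYM minus XYF, in which 23.1% of all genes tested were higher and 16.8% lower, 7 of 8 B cell markers were higher (median 0.83), 7 of 8 T cell markers lower (-0.78), 8 of 8 erythroid markers lower (-2.35), 5 of 8 proliferation genes lower (-0.76), 2 of 6 NK cell markers higher (0.40), 1 of 8 myeloid markers lower (-0.46), and 1 of 8 plasma cell markers higher and 1 lower (0.11). In XXM minus XXF (4.70% and 4.80% of all genes), 8 of 8 T cell markers were lower (-1.73) and 4 of 8 B cell markers higher (0.49), as were Klra8 of the NK cell list (0.89, adjusted p 0.0586) and Xbp1 of the plasma cell list (0.34, adjusted p 0.0771). The NK cell list as a whole had a median of -0.23 there, with 2 markers above 0 and 4 below. The plasma cell list had a median of 0.25, with 7 above 0 and 1 below. In XXF minus XYF (1.55% and 0.881%), 6 of 6 NK cell markers were higher (1.36) and 3 of 8 plasma cell markers lower (-0.44), and Cr2 of the B cell list was higher (0.79, adjusted p 0.013). In XXM minus XYM (4.48% and 3.38%), 3 of 6 NK cell and 2 of 8 erythroid markers were higher (0.83 and 0.81) and 4 of 8 T cell markers lower (-0.49), with Pax5 of the B cell list higher (0.90, adjusted p 0.0602) and Ly6c2 of the myeloid list lower (-0.79, adjusted p 0.0946).

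The summed RPKM of the B cell markers was 3040, 2872, 2494, 2871 and 2792 in XXF, 1594, 2589.7, 2689.7 and 1364 in XYF, 3996, 4395, 3954, 4011 and 3668 in XXM, and 2313, 3758, 3134, 3894 and 3603 in XYM. XYF F9 and XYF F6 were lowest and XXM 5 highest. For the T cell markers the sums were 1103, 1427, 1237, 1098 and 1285 in XXF, 1051, 1346, 1016 and 519 in XYF, 442, 468, 400.6, 328 and 334 in XXM, and 311, 540.5, 490.1, 651 and 582 in XYM, with XXF F2 and XYF F7 highest and XYM 9, XXM 7 and XXM 8 lowest. All XXF mice were above all XXM mice. NK cell markers summed to 394, 427, 419, 534 and 493 in XXF, 146, 242, 162 and 81.2 in XYF, 400.97, 333, 407, 385 and 345 in XXM, and 61.8, 201, 201, 290.2 and 159.7 in XYM. The XXF and XXM mice were above all XYF and XYM mice, and XYM 9 was lowest.

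Erythroid markers summed to 12807, 19683, 28783, 22831 and 16312 in XXF, 48047, 20134, 15783 and 36440 in XYF, 12352, 9720, 7626, 7322 and 14517 in XXM, and 14660, 2299.5, 6844, 5037 and 1589 in XYM. XYF F6 and XYF F9 were highest, XYM 16 and XYM 12 lowest, and XYM 9 came near XYF F8. Myeloid markers summed to 5205, 4196, 5422, 5958 and 5009.7 in XXF, 11813, 16262, 7513 and 45945 in XYF, 6422, 5892, 6413, 4893 and 4257 in XXM, and 46660, 3220.3, 8378, 4118 and 3516 in XYM, so that XYF F9 and XYM 9 stood apart from all other mice. Proliferation genes, led by Pcna, summed to 273, 237, 247, 225 and 202 in XXF, 531, 210.5, 351 and 578 in XYF, 175, 166, 205, 199 and 231 in XXM, and 458, 176, 226, 185 and 185 in XYM, with XYF F9, XYF F6 and XYM 9 highest. Plasma cell markers summed to 777, 1527, 1539, 703 and 973 in XXF, 1822, 1533, 1880.1 and 1348 in XYF, 1419.8, 1341, 999.3, 1314 and 1246 in XXM, and 1589.5, 1071, 1525, 1699.6 and 1086 in XYM, highest in XYF F8 and lowest in XXF F4. Without XYF F9 and XYM 9 together, an alternative chosen after seeing the data, 69 of the 86 genes were lower and 1 higher in XYM minus XYF, beside 3155 and 3567 of all genes, with a median of -0.68. The part of cell composition in the differences was not tested.

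Of the 91 genes, 29 overlap another annotated gene, and the labels do not say whether counting was stranded. The methods name a stranded library kit and the labels another kit. Cox4i2 overlaps Bcl2l1, which was lower in XYM than in XYF (-1.38, adjusted p 0.0264), and Atp5a1 overlaps Haus1 (-0.56, adjusted p 0.0337). Also lower were Cbarp at Atp5d (-0.44, adjusted p 0.0295), Itgad at Cox6a2 (-0.65, adjusted p 0.0883) and Shmt2 at Ndufa4l2 (-0.24, adjusted p 0.055). Higher were Gabpa at Atp5j (0.64, adjusted p 0.00607), Ino80dos at Ndufs1 (0.35, adjusted p 0.0456) and Tmem30a at Cox7a2 (0.25, adjusted p 0.0198). Of 90 genes matched to transcripts, Ndufaf2 alone shared at least 50% of its 51-base stretches with other genes, and how reads with several matches were counted is not stated.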

How the data were processed

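Splenocyte polyA RNA of 19 mice was measured by paired-end sequencing. Per the submitters' notes, reads were aligned to mm10 with Subread and counted with featureCounts, versions not given. The deposited values are log2 of (RPKM + 1) with 0.0001 added, made by the authors. Gene lengths and whole reads were recovered from the values, to a tolerance of 0.002 of a read, for all 21317 genes with a read. Group means were compared with limma 3.58.1 in R 4.3.3, with a trend of the spread, over 14186 genes that reached 0.5 RPKM in 4 or more mice. Tables and figures used Python 3.11.15 with numpy 2.4.6, pandas 2.3.3 and matplotlib 3.10.9. Steps were tested on simulated data. The genes described, the other lists and the marker lists were chosen with earlier results of these data known. Genes are named when past an adjusted p of 0.1 (where more than 12 are, the 6 largest differences in each direction), among the 5 with the largest moderated t in a comparison, highest or lowest in level in a complex, an isoform of a shared subunit, X-linked, or a core subunit. Genes of other lists are named as a selection, not by a fixed rule, from those past the adjusted p, and the most abundant of each cell type list is named. Alternatives numbered 11, with 4 added after seeing the data, besides leaving out each of the 19 mice. No library was left out of the reported fit. Library sizes and their range are given with the samples, and p-values carry the precision that the number of mice allows.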

Additional observations from a re-analysis of the deposited data

Results flagged for a closer look

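A mouse stood apart from the others of its group, by the gap to its nearest neighbour against the range of the group, in 10 of 208 groups looked at. By chance, about 1 group in 20 would show such a mouse. Values are log2(RPKM + 1), but for the last. Atp5sl was 4.6828 in XYM 9, while the other XYM mice were between 5.185 and 5.3471. Cox7b was 6.1969 in XYF F9, while the other XYF mice were between 6.7472 and 6.8509. Cox7b was 6.4396 in XYM 15, while the other XYM mice were between 5.7372 and 5.9083. Cox8c was 0.1664 in XYF F7, while the other XYF mice were at 0.0001. Ndufa10 was 5.9596 in XXM 8, while the other XXM mice were between 6.1339 and 6.1773. Uqcr11 was 0.1857 in XXF F1, while the other XXF mice were at 0.0001. Uqcr11 was 0.2501 in XXM 2, while the other XXM mice were at 0.0001. Uqcrh was 8.6456 in XYM 15, while the other XYM mice were between 7.6919 and 7.909. Uqcrh-ps1 was 3.9231 in XXF F2, while the other XXF mice were between 3.0627 and 3.2527. Median deviation of complex I assembly factors was -0.353 in XYF F9, while the other XYF mice were between 0.1906 and 0.2071. Cox8c and Uqcr11 rest on 1 read in the mouse named. What sets these mice apart was not tested.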

How the results depend on the processing

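Counts of genes past the adjusted p, and past the adjusted p and the fold, and the median difference over the 86 genes were recomputed under 11 alternatives, 4 more chosen after seeing the data, and without each of the 19 mice in turn. The 4 were library size as a covariate, removal of the gene length curve, XYF F6 and XXM 2 left out, and XYF F9 and XYM 9 left out. Only counts that moved by more than 1.5 times are listed for each comparison, and all others lay within 1.5 times of the reported count. For XXF minus XYF, with 0 and 0 genes called, the counts were 1 gene past the adjusted p under removal of the gene length curve. Without 1 mouse they ran from 0 to 1 past the adjusted p and 0 to 1 past the fold, and the median from -0.11 to 0.06. Of all genes, 220 were higher and 125 lower in the reported fit, and 188 and 203 under removal of the gene length curve. For XXM minus XYM, with 6 and 1 genes called, the counts were 2 past the fold under pseudocount 0.1, 2 past the fold under pseudocount 0.5, 1 gene past the adjusted p and 0 past the fold under no filter on low values, 2 past the fold under quantile normalization, 1 gene past the adjusted p and 0 past the fold under the 2 compared groups alone, 51 genes past the adjusted p and 2 past the fold under array weights, 1 gene past the adjusted p under limma-voom, 0 genes past the adjusted p and 0 past the fold under library size as a covariate, 2 genes past the adjusted p and 0 past the fold under removal of the gene length curve, 0 genes past the adjusted p and 0 past the fold under the 2 smallest libraries of XYF and XXM (XYF F6 and XXM 2) left out, 20 genes past the adjusted p and 5 past the fold under XYF F9 and XYM 9 left out, and 0 genes past the adjusted p and 0 past the fold under an adjusted p threshold of 0.05. Without 1 mouse they ran from 0 to 45 past the adjusted p and 0 to 17 past the fold, and the median from 0.27 to 0.49. Of all genes, 635 were higher and 480 lower in the reported fit, and 2781 and 2747 under array weights. They were 337 and 258 of 21317 under no filter, and 22 and 32 without XYF F6 and XXM 2. They were 1226 and 1368 without XYF F9 and XYM 9, and 53 and 61 at a threshold of 0.05. Past the fold, 161 were higher in the reported fit, and 215, 203 and 182 under pseudocounts 0.1 and 0.5 and quantile normalization. Other alternatives stand with the comparison above. For XXM minus XXF, with 1 and 1 genes called, the counts were 2 genes past the adjusted p under median ratio rescaling, 2 genes past the adjusted p under quantile normalization, 2 genes past the adjusted p under the 2 compared groups alone, 15 genes past the adjusted p and 2 past the fold under array weights, 7 genes past the adjusted p under removal of the gene length curve, 4 genes past the adjusted p and 4 past the fold under the 2 smallest libraries of XYF and XXM (XYF F6 and XXM 2) left out, and 2 genes past the adjusted p under XYF F9 and XYM 9 left out. Without 1 mouse they ran from 1 to 4 past the adjusted p and 0 to 3 past the fold, and the median from -0.24 to -0.09. Of all genes, 667 were higher and 681 lower in the reported fit. They were 831 and 736 under median ratio rescaling, 1009 and 652 under quantile normalization and 957 and 1032 in the 2 compared groups. Array weights gave 1695 and 1572, and removal of the length curve 1063 and 865. They were 759 and 606 without XYF F6 and XXM 2, and 970 and 909 without XYF F9 and XYM 9. Past the fold they were 185 and 413, 227 and 568 under array weights, and 197 and 386 without XYF F6 and XXM 2. For XYM minus XYF, with 62 and 34 genes called, the counts were 20 past the fold under quantile normalization, 38 genes past the adjusted p and 17 past the fold under library size as a covariate, 7 past the fold under removal of the gene length curve, and 39 genes past the adjusted p and 22 past the fold under the 2 smallest libraries of XYF and XXM (XYF F6 and XXM 2) left out. Without 1 mouse they ran from 34 to 71 past the adjusted p and 19 to 48 past the fold, and the median from -0.65 to -0.45. Of all genes, 3280 were higher and 2381 lower in the reported fit, and 1082 and 1154 past the fold. Past the fold they were 1134 and 1088 under quantile normalization and 633 and 968 under removal of the gene length curve. Library size as a covariate gave 2260 and 1678, with 671 and 874 past the fold. With XYF F6 and XXM 2 left out they were 2149 and 1368, with 701 and 721 past the fold. For the interaction, with 0 and 0 genes called, the counts were 21 genes past the adjusted p and 15 past the fold under array weights, 1 gene past the adjusted p and 1 past the fold under removal of the gene length curve, and 2 genes past the adjusted p and 2 past the fold under XYF F9 and XYM 9 left out. Without 1 mouse they ran from 0 to 8 past the adjusted p and 0 to 6 past the fold, and the median from 0.24 to 0.49. Of all genes, 4 were higher and 8 lower in the reported fit, and the same past the fold. Array weights gave 1268 and 2279, with 651 and 1259 past the fold. Removal of the gene length curve gave 4 and 10, with 4 and 9 past the fold. With XYF F9 and XYM 9 left out they were 319 and 684, with 253 and 529 past the fold. The cause of these shifts was not tested. Of 55 gene and comparison pairs, 1809 values were recomputed: 1570 kept their direction and side of the threshold, 201 fell short of it, 38 newly passed it and 0 changed direction. The interaction has no value with the compared groups alone, and Cox4i2 none under the stricter filter.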
